A study of Mus musculus with 69 samples.

Results

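Ribosome biogenesis factors are the proteins of the nucleolus that make ribosomal RNA (rRNA), modify and cut it, and assemble it with ribosomal proteins into the small (40S) and large (60S) ribosomal subunits. They were taken by gene symbol from a list of 50 such factors, and 45 of them had a probe set in the table of 17306 probe sets, with 1 probe set per gene. The 5 others, Fbl, Nop56, Npm1, Npm3 and Noc2l, were not analysed here. By role, the 45 genes were 2 core subunits of RNA polymerase I, 1 core protein of box C/D small nucleolar RNPs (snoRNPs), 3 core proteins of box H/ACA snoRNPs, 2 nucleolar chaperones or organisers, 12 factors of the small-subunit processome, 6 of pre-40S maturation, 3 of the PeBoW complex, 15 of pre-60S assembly and remodelling, and the nucleolar helicase Ddx21.

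RNA polymerase I transcribes the long rRNA precursor, snoRNPs guide its chemical modification, and the small-subunit processome folds and cuts the part that becomes 18S rRNA. Pre-40S and pre-60S particles then mature separately and leave the nucleus, while helicases, GTPases and AAA ATPases drive their remodelling. In liver, ribosome production is known to rise when hepatocytes prepare to grow and divide, and many of these genes are known targets of MYC-family transcription factors, which bind the E-box sequence CACGTG.

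Livers of male C57BL/6 mice, 10 weeks old, were profiled on Affymetrix arrays after 1 oral gavage of vehicle or of 1 of 3 compounds. Acetaminophen (APAP), a painkiller that kills pericentral hepatocytes in overdose, was given at 168.75 (low), 225 (medium) or 300 mg/kg (high). The same 3 levels were 22, 44 and 88 mg/kg for isoniazid (INZ), an antibiotic against tuberculosis, and 12.5, 25 and 50 mg/kg for paraquat (PQ), a redox-cycling herbicide. All doses were sampled at 1 day and the high doses also at 2 days, with 5 vehicle arrays per day, which served as controls for all 3 compounds. Each of the 14 groups held 5 arrays, except PQ medium with 4, so that 69 arrays were compared. The RNA was that of all cells in the middle of the left lateral lobe, so fewer cells of a type and less RNA per cell cannot be told apart.

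Values are log2 signals, on which a difference of 1 is a doubling, and array medians lay between 4.23 and 4.565. The hepatocyte markers on the table, 9 of 10 listed, had a summed signal of 16.52 to 16.58 (log2) in the vehicle arrays of day 1 and of 16.32 to 16.61 in those of high-dose APAP. At 1 day, 3 arrays that stood apart from their groups were left out in an alternative fit. Replicate 1 of high-dose APAP had a vehicle-like signal of the p53 target Cdkn1a (3.54, against 3.66 to 3.99 in vehicle), while replicate 1 of low-dose APAP (7.59) and replicate 1 of high-dose PQ (7.67) were near the APAP arrays with the highest levels. Replicate 4 of medium-dose APAP (8.08) was also high and was kept. Counts of genes are given with the 3 arrays and without them. The 3 stood apart by signals of these same data, so counts without them are not independent support.

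The E-box was counted in RefSeq promoter windows of the build GRCm38.p6, each reaching from 250 bases before to 50 bases after a gene's start. The motif CACGTG reads the same on both strands, and no other motif was searched. Of the 45 factors, 40 had such a window, and 11 of these (27.5%) held CACGTG, against 1376 of the 13162 array genes with a window (10.5%). Of 79 further genes of ribosome production with a window, from the lists counted below, 13 (16.5%) held it. The 4 windows below are those of E-box genes whose signals are given array by array. Each shows 30 bases around the motif, 5′ to 3′ on the strand of the gene, with the E-box in capitals, and all 4 motifs lay after the start, by 3 to 39 bases. A match of these letters is a description, not a bound site.
Ltv1, chr10:13193092-13193121, minus strand: gccctgtggaccCACGTGtggagctgccgg
Pno1, chr11:17211540-17211569, minus strand: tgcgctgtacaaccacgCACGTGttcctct
Pes1, chr11:3963965-3963994, plus strand: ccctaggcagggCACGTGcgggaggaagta
Mdn1, chr4:32657139-32657168, plus strand: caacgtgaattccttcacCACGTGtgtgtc

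Ribosome biogenesis factors of every role were higher 1 day after the high APAP dose. Of the 45 genes, 28 rose (62.2%; limma adjusted p under 0.05) and 0 fell, where 14.8% of all probe sets rose and 15.3% fell. The fitted change was positive for 44 of the 45 genes, where it was for 7177 of all 17306 probe sets. The median was 0.35 log2 units, against a median of -0.05 over all probe sets. The changes ranged from -0.20 for Imp3 to 1.02 for Nop58, and 34 genes had an unadjusted p under 0.05 (41.3% of all probe sets). In 6 genes (Polr1a, Ncl, Heatr1, Ltv1, Mdn1 and Gnl2) each treated array was above all vehicle arrays, which held for 2.99% of all probe sets.

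The rise was uneven among the 5 mice. Measured against the vehicle mean, the median of the 45 genes was 0.09, 0.55, 0.59, 0.03 and 0.56 log2 units in replicates 1 to 5. Replicates 2, 3 and 5 had 38, 40 and 39 of the 45 genes above the highest vehicle array, and replicates 1 and 4 had 15 and 12. Over all probe sets that share was 28.8%, 28.7% and 29% in the former and 21.8% and 22% in the latter. The SD was larger in the APAP arrays than in the vehicle arrays for 42 of the 45 genes. The model takes 1 spread per gene from all groups. In a fit of only the 10 arrays compared, which estimates the spread from them alone and with fewer degrees of freedom, 0 factors passed, the lowest adjusted p was 0.064, and 30 had an unadjusted p under 0.05 (18 of all probe sets passed). Without the 3 arrays that stood apart, 33 factors rose and 1, Imp3, fell, where 7023 of all 17306 probe sets passed in either direction. The count of rises was 15 without replicate 5 of the APAP arrays, 16 without replicate 3 and 19 without replicate 2, and 33 without either replicate 1 or replicate 4. Counts over all probe sets in these fits without single arrays are not given here.

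**Figure D1:**
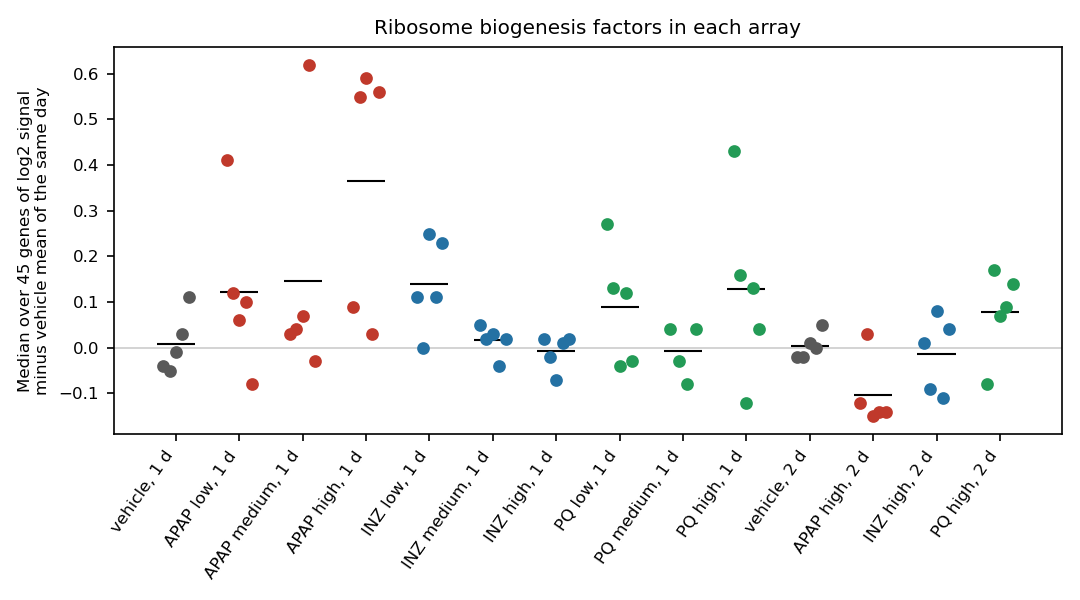
Each point is 1 array, placed by the median over 45 ribosome biogenesis genes of its log2 signal minus the vehicle mean of the same day; lines are group means over arrays, and colours mark vehicle (grey), APAP (red), INZ (blue) and PQ (green). High-dose APAP at 1 day splits into arrays at 0.55, 0.59 and 0.56 and arrays at 0.09 and 0.03, and single arrays at 0.62, 0.41 and 0.43 stand apart in the medium APAP, low APAP and high PQ groups.

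Of the core subunits of RNA polymerase I, 1 of 2 rose. Polr1a, a subunit of its active centre, read 5.25, 5.21, 5.23, 5.21 and 5.25 in the vehicle arrays of day 1. After high-dose APAP it read 5.45, 5.60, 5.59, 5.30 and 5.46, all above the vehicle arrays. The rise was 0.25 ± 0.08 log2 units (SE, n = 5 and 5; limma adjusted p = 0.018; exact permutation p = 0.0079, the smallest possible with 5 against 5 arrays). These vehicle arrays had an SD of 0.02. Polr1a was above all of them also in low-dose APAP, low-dose INZ and high-dose PQ at 1 day, where it did not pass the limma test. Polr1b, the partner subunit in that centre, read 5.01, 5.14, 5.24, 5.26 and 5.42 in vehicle and 5.44, 5.36, 5.22, 5.57 and 5.28 after APAP. These groups overlapped, and the difference of 0.16 ± 0.14 did not pass the limma test (adjusted p = 0.37).

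Among the snoRNP core proteins 3 of 4 rose. Nop58, a scaffold of the box C/D snoRNPs that guide ribose methylation, read 7.60, 7.94, 7.74, 7.87 and 8.28 in vehicle. After APAP it read 7.98, 9.36, 9.55, 8.03 and 9.60, so that 3 arrays were above the vehicle arrays and 2 were within their range. The change was 1.02 ± 0.28 log2 units, or 2.03-fold (limma adjusted p = 0.0049; exact permutation p = 0.048). Gar1, which joins the pseudouridine synthase dyskerin in box H/ACA snoRNPs, read 6.66, 6.66, 6.46, 6.79 and 6.87 in vehicle and 6.83, 7.98, 8.12, 6.73 and 8.08 after APAP. The same 3 arrays were above vehicle, and the change was 0.86 ± 0.21 log2 units, or 1.81-fold (limma adjusted p = 0.0022; exact permutation p = 0.04). Nhp2, another H/ACA core protein, rose by 0.73 ± 0.18 (limma adjusted p = 0.0028). Dkc1, dyskerin itself, read 7.57, 7.43, 7.64, 7.62 and 7.73 in vehicle and 7.75, 7.71, 7.88, 7.59 and 7.84 after APAP. Its groups overlapped, and the difference of 0.16 ± 0.08 did not pass (limma adjusted p = 0.11).

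Both nucleolar chaperones on the table rose. Ncl, nucleolin, an abundant RNA-binding protein that acts from rRNA transcription to assembly, had the smallest adjusted p of the 45 genes. It read 7.62, 7.47, 7.56, 7.57 and 7.56 in vehicle and 7.92, 8.28, 8.43, 7.72 and 8.47 after APAP, with no overlap. The rise was 0.61 ± 0.11 log2 units, or 1.53-fold (limma adjusted p = 0.00053; exact permutation p = 0.0079). Nolc1, which carries snoRNPs between nuclear bodies, rose by 0.55 ± 0.20 (limma adjusted p = 0.028). The helicase Ddx21, which links RNA polymerase I transcription with rRNA processing, read 6.43, 6.37, 6.42, 6.75 and 6.52 in vehicle and 6.74, 7.26, 7.47, 6.5 and 7.45 after APAP. Replicates 2, 3 and 5 of APAP were above the highest vehicle array and the others were not, and the rise was 0.59 ± 0.15, or 1.5-fold (limma adjusted p = 0.0028; exact permutation p = 0.04).

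In the small-subunit processome, which builds the first precursor of the 40S subunit, 8 of 12 genes rose: Heatr1, Wdr75, Utp18, Utp20, Imp4, Nop14, Noc4l and Ddx10. Their changes lay between 0.21 for Heatr1 and 0.47 for Wdr75. Heatr1, which also promotes rRNA transcription, read 6.11, 6.09, 6.15, 6.18 and 6.09 in vehicle and 6.24, 6.43, 6.51, 6.24 and 6.25 after APAP. No APAP array fell within the vehicle range (limma adjusted p = 0.033; exact permutation p = 0.0079). Nop14 read 7.0, 6.89, 7.02, 7.22 and 7.19 in vehicle and 7.19, 7.64, 7.55, 7.22 and 7.48 after APAP. Replicate 1 was within the vehicle range and replicate 4 level with its top, and the rise was 0.35 ± 0.09 (limma adjusted p = 0.0029; exact permutation p = 0.024). Of the others, Wdr43 missed the threshold at 0.30 ± 0.12 (limma adjusted p = 0.0502). The rRNA acetyltransferase Nat10 differed by 0.04 ± 0.12 and Rrp9, a protein of the U3 snoRNP, by 0.15 ± 0.11 (limma adjusted p = 0.81 and 0.31). Imp3, also of the U3 snoRNP, was the only factor with a negative fitted change. It read 9.53, 9.43, 9.66, 9.60 and 9.64 in vehicle and 9.76, 9.09, 9.30, 9.43 and 9.29 after APAP. The vehicle-like replicate 1 was the highest of these APAP arrays, and the other 4 were below or level with the lowest vehicle array. The difference of -0.20 ± 0.09 missed the threshold (limma adjusted p = 0.072) and passed without the 3 arrays that stood apart (-0.30, adjusted p = 0.00088).

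Pre-40S maturation factors rose in 5 of 6 cases, with changes from 0.43 for Bysl to 0.87 for Rrp12, an export factor of both subunits. Ltv1, which must leave the pre-40S particle before it matures, read 7.81, 7.77, 7.78, 7.73 and 7.84 in vehicle. After APAP it read 7.89, 8.63, 8.92, 7.90 and 8.85. All 5 APAP arrays were above vehicle, replicates 1 and 4 by a small margin, and the rise was 0.65 ± 0.15 log2 units, or 1.57-fold (limma adjusted p = 0.0015; exact permutation p = 0.0079). Pno1, a partner of the endonuclease Nob1, read 8.74, 8.82, 8.51, 8.69 and 8.82 in vehicle and 8.80, 9.46, 9.27, 8.83 and 9.50 after APAP. Only replicate 1 of the APAP group was within the vehicle range, and the rise was 0.46 ± 0.14 (limma adjusted p = 0.0088; exact permutation p = 0.032). Nob1, which makes the last cut of 18S rRNA, differed by 0.26 ± 0.13 and did not pass (limma adjusted p = 0.12).

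On the 60S side, 2 of the 3 PeBoW proteins, which act on the large-subunit rRNA precursor, rose. Pes1 read 3.34, 3.53, 3.24, 3.53 and 3.59 in vehicle, below the lowest array median, and 3.47, 4.79, 4.48, 3.66 and 4.99 after APAP. Its replicate 1 was within the vehicle range, and the rise was 0.83 ± 0.18 log2 units, or 1.78-fold (limma adjusted p = 0.0011; exact permutation p = 0.032). The other low-signal factors, with a vehicle mean under 4.23, were Rrp12, Wdr12 and Nle1. Bop1 read 6.32, 6.30, 6.15, 6.11 and 6.55 in vehicle and 6.38, 6.55, 6.75, 6.38 and 6.78 after APAP. These groups overlapped, and the rise was 0.28 ± 0.11 (limma adjusted p = 0.043; exact permutation p = 0.04). The third protein, Wdr12, differed by 0.17 ± 0.12 (limma adjusted p = 0.26).

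Pre-60S factors were the group with the lowest share of rises, 6 of 15, which were Mdn1, Wdr74, Gnl2, Nop2, Nop16 and Rrp1b. Mdn1 (midasin), the AAA ATPase that strips assembly factors from pre-60S particles, read 4.85, 4.90, 4.68, 4.64 and 4.82 in vehicle. After APAP it read 5.13, 5.36, 5.43, 4.96 and 5.64, all above vehicle, and the rise was 0.52 ± 0.14 (limma adjusted p = 0.0049; exact permutation p = 0.0079). Gnl2, a GTPase of nuclear pre-60S particles, read 6.83, 6.87, 6.98, 6.92 and 6.71 in vehicle and 7.15, 7.72, 7.75, 7.04 and 7.83 after APAP. Its groups did not overlap either, and the rise was 0.64 ± 0.13, or 1.56-fold (limma adjusted p = 0.00071; exact permutation p = 0.0079). The 9 pre-60S factors that did not pass had changes from 0.00 for the GTPase Gnl3 (nucleostemin) to 0.35 for Ppan. Nle1, which works with midasin, was among them at 0.06 ± 0.14.

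**Figure D2:**
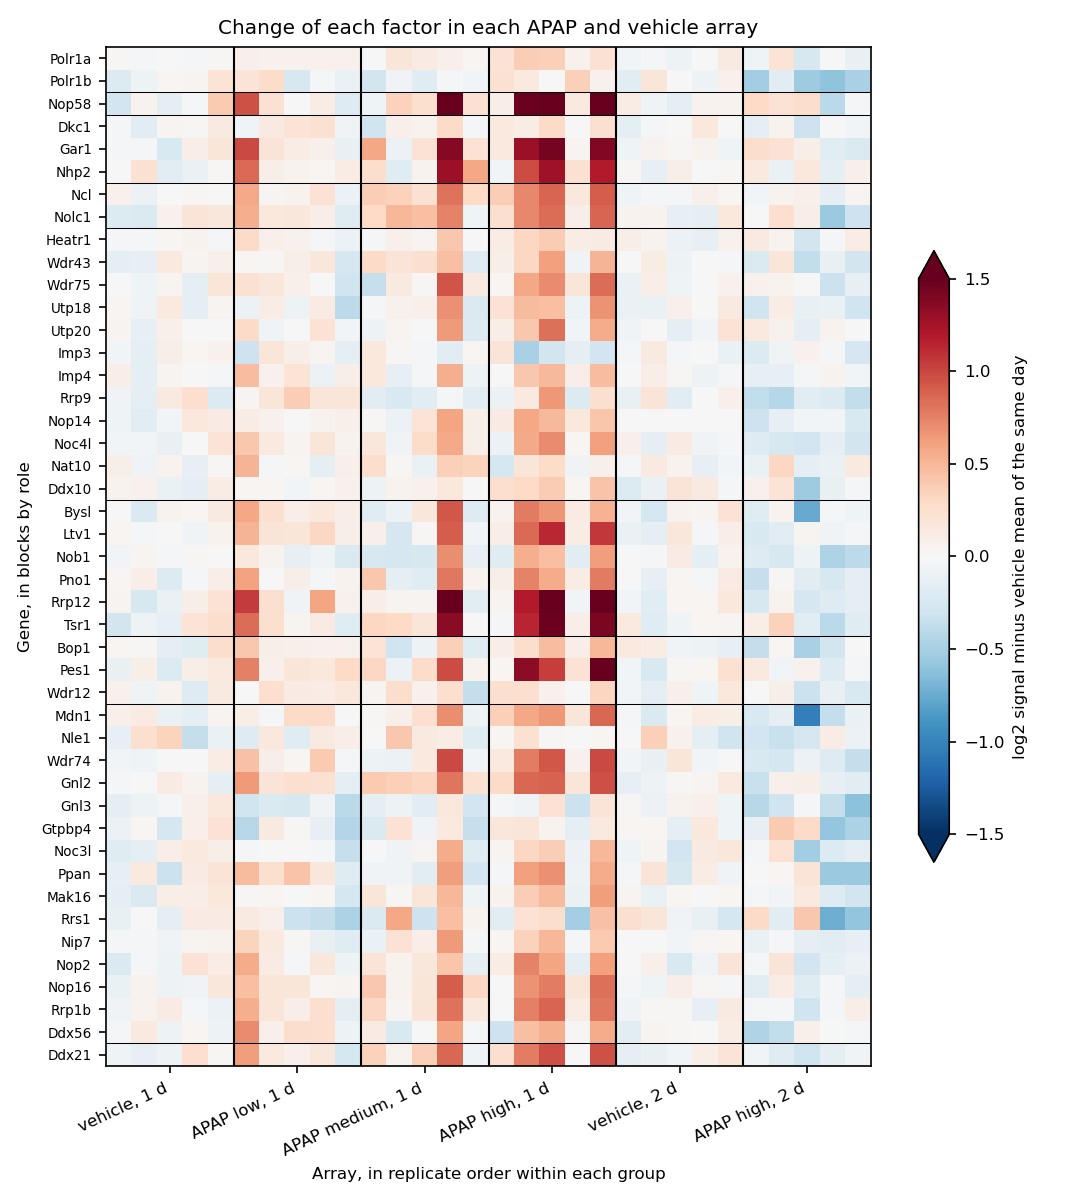
Each row is a gene and each column an array; colour gives log2 signal minus the vehicle mean of the same day, clipped at 1.5, and horizontal lines part the roles. In high-dose APAP at 1 day the columns of replicates 2, 3 and 5 are red in nearly all rows while those of replicates 1 and 4 are pale, and the column of replicate 4 of medium-dose APAP resembles the red ones.

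Leaving out 1 array in turn kept the limma call of Ncl, Gnl2, Ltv1, Mdn1, Nop14, Nop58, Gar1, Pes1 and Ddx21 in each case. Heatr1 and Bop1 lost theirs in 5 and 7 of these cases, Polr1a in 2 and Pno1 in 1.

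Of the genes with an E-box in the promoter window, 9 of 11 rose at 1 day, with a median change of 0.38. Of the 29 without, 16 rose, with a median of 0.28, and of the 5 with no window 3 rose. Over all probe sets 14.8% rose. Pes1 and Ltv1 had an E-box, and Nop58, Gar1 and Ncl had a window without one. From 1 day to 2 days 10 of the 11 and 21 of the 29 were lower, where 11.8% of all probe sets were. The median changes were -0.452 with an E-box and -0.435 without. The difference between these sets was not tested. Myc, which encodes a factor that binds this motif, read 7.39, 7.10, 6.92, 6.04 and 7.36 in the APAP arrays, and its change of 0.20 ± 0.50 did not pass (limma adjusted p = 0.79). Of 13 genes of the wider MYC network, 3 rose (23.1%) and 2 fell (15.4%), where 14.8% and 15.3% of all probe sets did. The median change of the 13 was 0.04. The called genes with the smallest adjusted p were Mycn, which rose by 0.72 ± 0.13 (limma adjusted p = 0.00056), and Mycl and Mlxipl, which fell by 0.58 and 1.17.

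Lists of further genes of ribosome production were counted beside the 14.8% of all probe sets that rose and the 15.3% that fell. At 1 day 17 of 34 other pre-60S factors rose and 1 fell, with Eif6 at 1.03 ± 0.23 and Sdad1 at 0.44 ± 0.10. In the small-subunit processome 10 of 29 others rose and 1 fell, with Utp11 at 0.50 ± 0.11. Among other pre-40S factors 7 of 9 rose, and of the nuclear RNA exosome, which trims rRNA precursors, 8 of 14 rose, with the smallest adjusted p for Exosc1 at 0.64 ± 0.13. The other RNA polymerase I genes were split: of 9, Polr1e rose by 1.08 ± 0.25, and Rrn3, the factor that brings the polymerase to its promoter, fell by 0.60.

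Genes of protein synthesis outside the nucleolus also moved at 1 day, beside the same shares of all probe sets. Of 15 translation factors 9 rose, and of 18 aminoacyl-tRNA synthetases, which charge tRNAs, 10 rose, with Rars at 0.70 ± 0.15. Cytosolic ribosomal proteins, of which 18 of 78 listed were on the table, rose in 7 cases and fell in 1. Targets of ATF4, a transcription factor induced by lack of amino acids, rose in 10 of 16 cases, with Psat1 at 3.51 ± 0.66, and p53 targets in 6 of 12, with Cdkn1a at 2.89 ± 0.66. Cdkn1a read 3.54, 8.13, 8.38, 5.12 and 8.45 in the 5 APAP arrays, high in the same replicates 2, 3 and 5.

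Markers of several cell types also changed 1 day after high-dose APAP, where 14.8% of all probe sets rose and 15.3% fell. Monocyte and macrophage markers rose in 8 of 11 cases, and their summed signal was 10.33, 12.59, 12.54, 11.80 and 12.76 (log2) in replicates 1 to 5, against 10.52 to 10.91 in vehicle. Neutrophil markers rose in 6 of 10 cases, and their sum was 7.38, 11.6, 10.7, 9.58 and 11.3, against 7.36 to 7.73 in vehicle. Pericentral hepatocyte markers fell in 6 of 9 cases, with a sum of 13.74 to 14.88 against 14.76 to 14.86. Markers of stellate cells rose in 4 of 10 cases and fell in 2, those of endothelial cells rose in 3 of 8 and fell in 2, and those of T, NK and B cells passed in 0 of 14 (limma; 1 with an unadjusted p under 0.05). Of 8 Kupffer cell markers 1, Marco, rose by 2.63 ± 0.72 and 1, Clec4f, fell by 0.46, and of 4 cholangiocyte markers Sox9 rose by 1.84 ± 0.37. Of 3 erythroid markers Car1 fell by 1.95 and Alas2 also fell, and their sum was 7.21 to 9.14 against 9.32 to 9.55. The part of these cells in the change of the ribosome biogenesis factors was not tested.

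**Figure D3:**
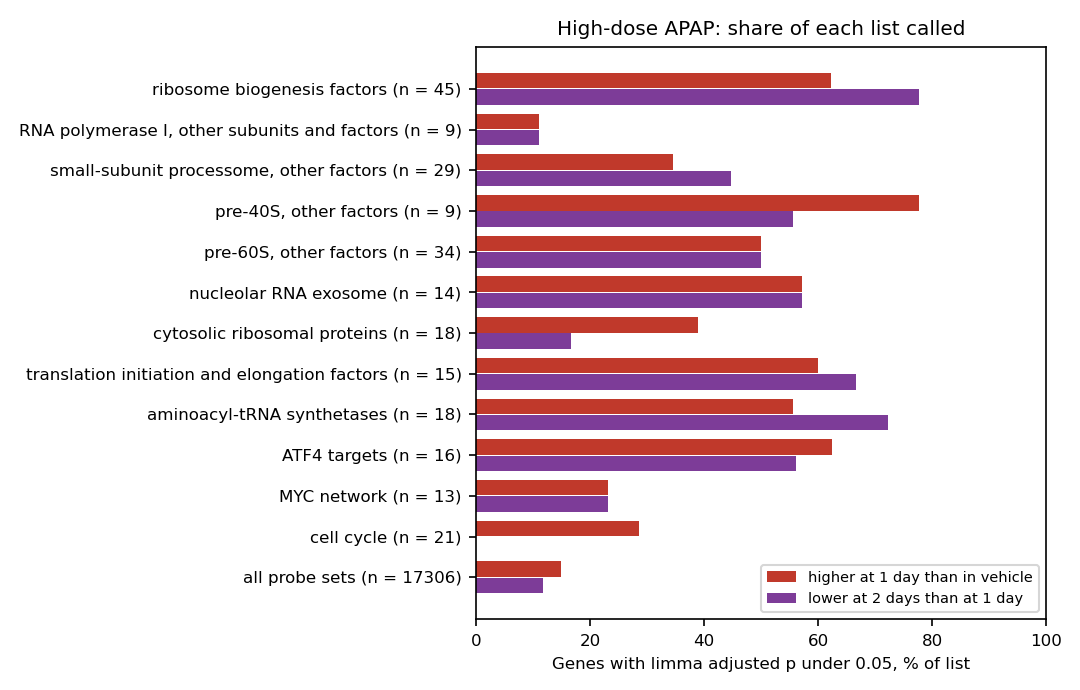
Bars give the percentage of each gene list with a limma adjusted p under 0.05, higher 1 day after high-dose APAP than in vehicle (red) and lower at 2 days than at 1 day after it (purple); n is the number of genes on the table. The 45 factors reach 62.2% and 77.8%, all probe sets 14.8% and 11.8%, and no cell cycle gene is lower at 2 days.

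At 2 days after the same dose the factors were no longer above vehicle. None of the 45 rose (2.85% of all probe sets did) and 1, Polr1b, fell (1.63% of all probe sets did). The fitted change was negative for 39 of the 45 genes, as it was for 11169 of all 17306 probe sets. The median was -0.11 log2 units against -0.05 over all probe sets, and 6 genes had an unadjusted p under 0.05 (18.7% of all probe sets). Polr1b read 5.13, 5.48, 5.30, 5.22 and 5.36 in the vehicle arrays of day 2 and 4.78, 5.14, 4.76, 4.70 and 4.81 after APAP. Of the treated arrays, replicate 2 lay within the vehicle range and the other 4 below it. The change was -0.46 ± 0.14 (limma adjusted p = 0.036; exact permutation p = 0.016). Of the arrays compared, leaving out replicate 1, 3, 4 or 5 of APAP or replicate 2, 3, 4 or 5 of vehicle, each alone, ended the limma call.

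Other factors with low values at 2 days did not pass the limma test. Gnl3 differed by -0.34 ± 0.11 (adjusted p = 0.06), Mdn1 by -0.37 ± 0.14 (adjusted p = 0.13) and Rrp9 by -0.30 ± 0.11 (adjusted p = 0.099). Mdn1 read 4.88, 4.68, 4.92, 5.01 and 4.98 in vehicle and 4.67, 4.76, 3.87, 4.54 and 4.8 after APAP, where replicate 3 was far below the rest. In Rrp9 and Nop14 each treated array was below all vehicle arrays, as in 3.37% of all probe sets. For Nop14 the gap was small: it read 7.2, 7.2, 7.19, 7.19 and 7.19 in vehicle and 6.88, 7.07, 7.15, 7.15 and 6.97 after APAP (limma adjusted p = 0.36; exact permutation p = 0.0079). A fit of only the 10 arrays compared called 0 factors (lowest limma adjusted p 0.078; 9 with an unadjusted p under 0.05), and 28 of all probe sets passed in it. Without the 3 arrays that stood apart at 1 day, Polr1b and Gnl3 fell, where 1291 of all 17306 probe sets passed in either direction.

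Compared directly, 35 of the 45 factors were lower at 2 days than at 1 day after high-dose APAP (77.8%), where 11.8% of all probe sets were lower. None was higher, where 7.11% of all probe sets were. The median change was -0.45 log2 units, against -0.02 over all probe sets, and 40 genes had an unadjusted p under 0.05 (31.1% of all probe sets). All 28 genes that had risen at 1 day were among the 35, and the other 7 were Polr1b, Wdr43, Rrp9, Nob1, Noc3l, Mak16 and Nip7. These comparisons share the 1-day APAP arrays.

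By role, both RNA polymerase I subunits, Nop58, both chaperones, Ddx21 and all 6 pre-40S factors were lower, as were 2 of 3 H/ACA proteins, 10 of 12 processome factors, 2 of 3 PeBoW proteins and 9 of 15 pre-60S factors. In 8 genes (Polr1b, Heatr1, Nop14, Pno1, Bop1, Mdn1, Wdr74 and Nip7) each 2-day array was below all 1-day arrays, which held for 1.80% of all probe sets. For Mdn1 the change was -0.77 ± 0.14 (limma adjusted p = 0.00023; exact permutation p = 0.0079), the smallest adjusted p of the 45. Pno1 read 8.35, 8.71, 8.53, 8.46 and 8.55 at 2 days, against 8.80 to 9.50 at 1 day, a change of -0.65 ± 0.14 (limma adjusted p = 0.001; exact permutation p = 0.0079). Bop1 read 5.97, 6.35, 5.84, 6.05 and 6.33 at 2 days, just below the 6.38 to 6.78 of day 1, a change of -0.46 ± 0.11 (limma adjusted p = 0.003; exact permutation p = 0.0079). Wdr74, which helps detach assembly factors from pre-60S particles, read 8.47, 9.09, 9.26, 8.39 and 9.32 at 1 day and 8.20, 8.17, 8.34, 8.24 and 8.07 at 2 days, a change of -0.70 ± 0.15 (limma adjusted p = 0.0014). In these genes even the low replicates 1 and 4 of day 1 were above the 2-day arrays.

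Factors with large rises at 1 day were mostly within or near the vehicle range at 2 days. Nop58 read 8.24, 8.16, 8.20, 7.53 and 7.92, against 7.79 to 8.05 in the vehicle arrays of that day, and the change from day 1 was -0.90 ± 0.28 (limma adjusted p = 0.018; exact permutation p = 0.1). Gar1 read 7.04, 7.0, 6.87, 6.61 and 6.56, against 6.72 to 6.84 in vehicle. Ncl read 7.66, 7.76, 7.78, 7.57 and 7.75, against 7.64 to 7.78 in vehicle, and its change from day 1 was -0.46 ± 0.11 (limma adjusted p = 0.0032; exact permutation p = 0.032). For all 3 genes the 2-day arrays overlapped both the vehicle arrays and the low replicates of day 1. Ltv1, at 7.68, 7.74, 7.95, 7.86 and 7.89, and Gnl2, at 6.69, 7.10, 7.11, 6.90 and 6.86, did the same. Ddx21 read 6.59, 6.45, 6.33, 6.48 and 6.57, and Heatr1 6.23, 6.15, 5.82, 6.07 and 6.2. Both overlapped the vehicle arrays of day 2.

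Pes1 read 3.75, 3.56, 3.67, 3.41 and 3.58 at 2 days, against 3.37 to 3.83 in vehicle. Polr1a read 5.12, 5.39, 4.95, 5.18 and 5.08, with replicate 2 above and replicates 3 and 5 below the vehicle range of 5.11 to 5.32. Dkc1 read 7.52, 7.71, 7.34, 7.65 and 7.61, against 7.52 to 7.82 in vehicle. The exact permutation test of these 3 genes against vehicle at 2 days gave p = 0.92, 0.63 and 0.3.

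**Figure D4:**
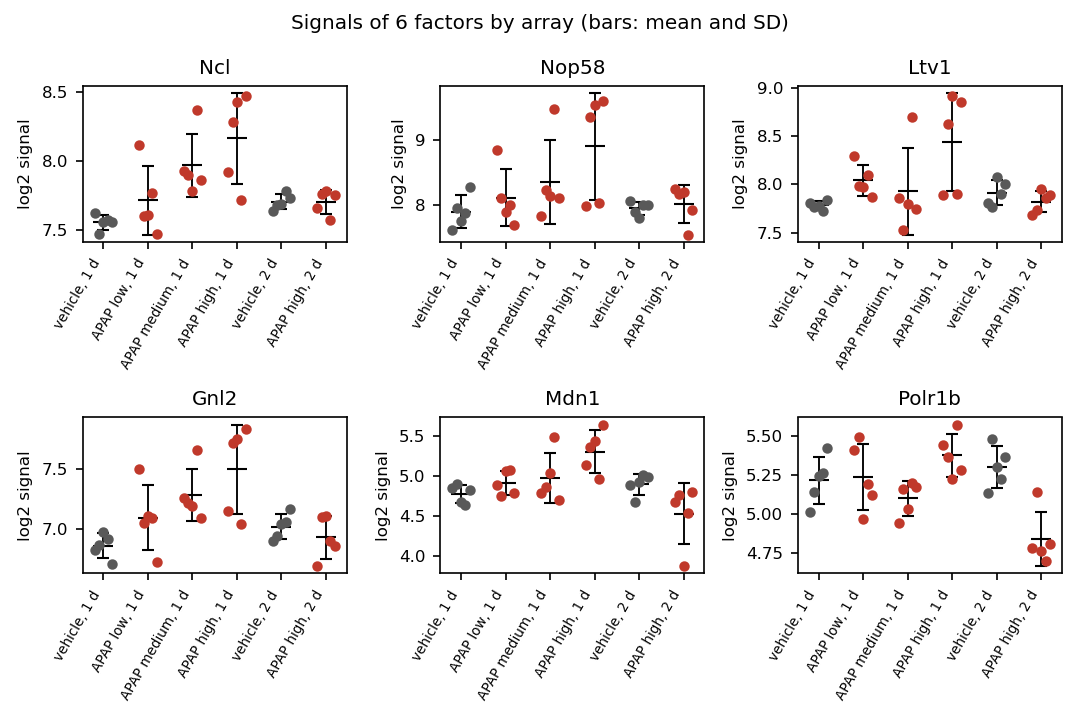
Log2 signals of 6 factors, 1 point per array, in vehicle (grey) and APAP (red) groups at 1 day and 2 days, with bars for the mean and SD of each group; each panel has its own axis, which does not start at 0. Ncl, Ltv1, Gnl2 and Mdn1 show no overlap between vehicle and high-dose APAP at 1 day, and Polr1b is lowest 2 days after APAP.

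The difference between the APAP effect at 2 days and that at 1 day, each against its own vehicle, passed the limma test for 8 factors (17.8%, where 1.66% of all probe sets passed in this direction), all with a lower effect at 2 days. These were Ncl, Nop14, Noc4l, Ltv1, Mdn1, Wdr74, Gnl2 and Ddx21, with differences from -0.50 for Nop14 to -0.89 for Mdn1. None had a higher effect at 2 days, where 1.15% of all probe sets did, and 35 had an unadjusted p under 0.05, where 21.5% did. The vehicle groups of the 2 days themselves differed in 0 factors (limma; 0% of all probe sets), with 1 at an unadjusted p under 0.05 (3.15% of all probe sets) and a median change of 0.06. Ncl was in each vehicle array of day 2 above those of day 1 (0.959% of all probe sets) and Nat10 below (0.734%). Fits of only the arrays compared called 0 factors, both for the direct time contrast (lowest adjusted p 0.2; 36 with an unadjusted p under 0.05) and for the difference of effects (lowest adjusted p 0.071; 36). Of all probe sets 0 and 11 passed in these 2 fits. Without the 3 arrays that stood apart, 37 and 29 factors were lower. Of all 17306 probe sets, 5254 and 3414 then passed in either direction. Without replicates 2, 3 or 5 of the 1-day APAP arrays, each left out alone, the direct contrast called 24, 18 and 19 factors and the difference of effects 2, 1 and 1. Without replicates 1 or 4 the counts were 37 and 39 for the former and 28 and 25 for the latter. Among the other arrays, the difference of effects went below 6 without replicate 1 or 3 of the 1-day vehicle (5 each), replicate 3 of the 2-day vehicle (4) or replicate 5 of the 2-day APAP arrays (4). The fits without single arrays are given without counts over all probe sets.

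**Figure D5:**
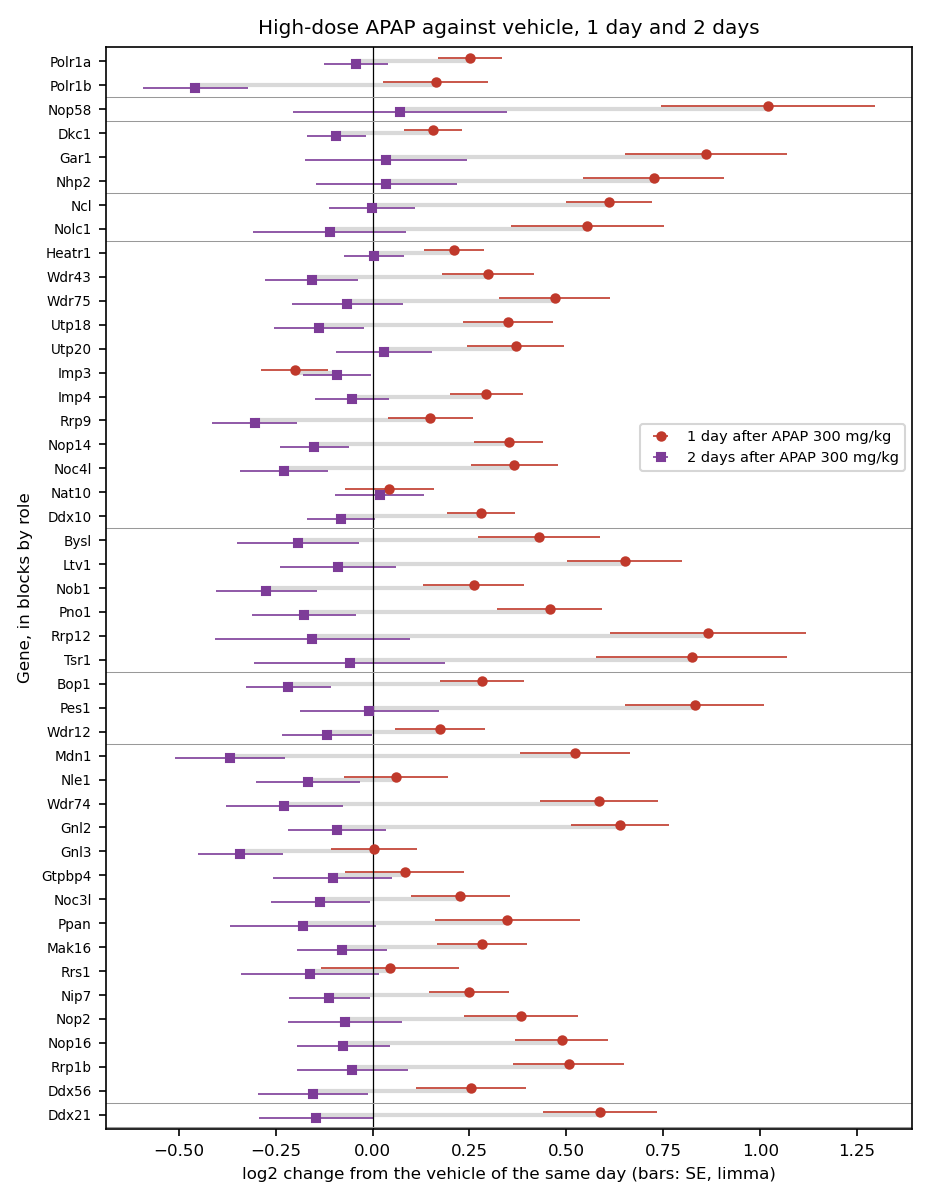
Fitted log2 change from the vehicle of the same day, with limma SE, for each of 45 genes at 1 day (red circles) and 2 days (purple squares) after 300 mg/kg APAP; grey bars join the points of a gene. The red points lie right of 0 for 44 genes and the purple points left of 0 for 39. Of all 17306 probe sets, 7177 had a positive change at 1 day and 11169 a negative change at 2 days.

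Further pathway genes were lower at 2 days than at 1 day in varied shares, beside 11.8% of all probe sets. Of the other processome factors 13 of 29 were lower at 2 days, of the other pre-60S factors 17 of 34, of the exosome 8 of 14, of the translation factors 10 of 15 and of the aminoacyl-tRNA synthetases 13 of 18. The shares were smaller for the other RNA polymerase I genes, with 1 of 9 lower, and for the cytosolic ribosomal proteins, with 3 of 18 lower and 1 higher. The other pre-40S factors had 5 of 9 lower. Of the cell cycle genes 13 of 21 were higher at 2 days than at 1 day, and 16 of 21 were higher than in vehicle at 2 days, with Kif20a at 2.21 ± 0.28 and Top2a at 2.29 ± 0.36. Over all probe sets 7.11% were higher at 2 days than at 1 day, and 2.85% were higher than in vehicle at 2 days. Macrophage markers were still above vehicle in 9 of 11 cases, and their summed signal was 11.26 to 12.94, against 10.22 to 10.73 in vehicle. Neutrophil markers passed in 0 of 10 cases at 2 days (limma; 4 with an unadjusted p under 0.05), with a sum of 7.37 to 9.22 against 7.23 to 7.47. Stellate cell markers were higher than in vehicle in 5 of 10 cases, with Col1a2 at 3.23 ± 0.37 and Col1a1 at 1.72 ± 0.21, and higher than at 1 day in 5, and their sum was 11.77 to 13.13 against 11.42 to 11.61. The part of these cells in the time course was not tested.

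No factor passed in the other 10 treated groups, all compared by limma with the shared vehicle arrays of their day. In medium-dose APAP, where 0.173% of all probe sets rose and 0.0693% fell, the median change of the 45 genes was 0.14. The number with an unadjusted p under 0.05 was 7 of 45, against 18.4% of all probe sets. The lowest adjusted p there was that of Ncl, 0.07, and in Ncl and Gnl2 each array was above all vehicle arrays, as in 1.99% of all probe sets. By array, the median of the 45 genes was 0.03, 0.04, 0.07, 0.62 and -0.03. Replicate 4 alone carried a rise over most of the 45 genes, with 39 above all vehicle arrays, as were 30% of all probe sets. Its Cdkn1a signal was 8.08. Without the 3 arrays that stood apart, none of them in this group, Ncl, Gnl2 and Nop16 passed, with unchanged group means. In that fit 1007 of the 17306 probe sets passed.

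Low-dose APAP gave a median change of 0.14, with array medians of 0.41, 0.12, 0.06, 0.10 and -0.08, and of 0.06 without replicate 1, the highest. No probe set passed there (0%), and 1 factor had an unadjusted p under 0.05 (6.39% of all probe sets). Polr1a and Ltv1 were in each array above all vehicle arrays (1.13% of all probe sets). High-dose PQ at 1 day likewise gave 0.14, with array medians of 0.43, 0.16, -0.12, 0.13 and 0.04, and 0.04 without replicate 1. In replicate 1, 40 of the 45 genes were above all vehicle arrays, as were 29.3% of all probe sets. In this PQ group no probe set passed (0%), and 3 factors had an unadjusted p under 0.05 (6.25% of all probe sets). Polr1a was in each of its arrays above all vehicle arrays (0.514%).

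Low-dose INZ had a median of 0.15, with array medians of 0.11, 0.00, 0.25, 0.11 and 0.23. Changes were positive in 41 of 45 genes and in 8219 of all 17306 probe sets. No gene passed (0% of all probe sets; lowest adjusted p of a factor 0.8), and 5 factors had an unadjusted p under 0.05, against 5.37% of all probe sets. Polr1a, Pes1 and Rrp1b were in each array above all vehicle arrays, as were 0.942% of all probe sets. Polr1a read 5.42, 5.31, 5.52, 5.35 and 5.44 there, and its vehicle arrays, with an SD of 0.02, spread little. Pes1 read 3.61, 3.87, 3.84, 3.88 and 3.77, against 3.24 to 3.59 in vehicle.

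Medium-dose and high-dose INZ gave medians of 0.01 and -0.01 at 1 day, and high-dose INZ -0.02 at 2 days. Of the factors 0, 3 and 1 had an unadjusted p under 0.05, against 2.76%, 4.8% and 4.72% of all probe sets. In the high-dose group 0.00578% of all probe sets rose and 0.0173% fell at 1 day, and 0% passed in the other 2 groups. The lowest adjusted p of a factor after INZ was that of Gnl3, a GTPase abundant in proliferating cells. It read 8.19, 8.22, 8.36, 8.53 and 8.47 after the high dose at 1 day, all below the vehicle arrays at 8.71, 8.76, 8.82, 8.92 and 9.0, as in 0.844% of all probe sets. The difference of -0.49 ± 0.11 did not pass over all genes (limma adjusted p = 0.15). It passed with array weights (-0.47, adjusted p = 0.015) and when the vehicle arrays of both days were pooled (-0.53, adjusted p = 0.0027). At 2 days after INZ, Gnl3 differed by -0.09 ± 0.11.

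Low and medium PQ gave medians of 0.07 and 0.00 at 1 day, and high-dose PQ 0.08 at 2 days. No probe set passed in these groups (0%), and 1, 0 and 1 factors had an unadjusted p under 0.05, against 3.12%, 1.86% and 3.63% of all probe sets. Nip7, a small pre-60S factor, was in each array of medium PQ below all vehicle arrays, as were 0.861% of all probe sets. At 2 days after high-dose PQ, Nip7, Nolc1, Gtpbp4 and Mak16 were above all vehicle arrays, as were 0.855% of all probe sets.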

How the data were processed

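Each array gave 1 log2 signal per probe set in the table deposited by the authors. The submitters' processing notes name RMA, which corrects background, normalizes quantiles and summarises probes; its version is not given in the sources used here. No filter on low values was applied, except as an alternative. Gene symbols came from the platform annotation: 16464 of 17306 probe sets carried 1 symbol, and 842 did not carry exactly 1. A probe set with no symbol or with several was not assigned to a gene. Each array was taken as 1 mouse, in 14 groups set by the labels, which name the vehicle arrays for APAP only. Replicate numbers follow the order of the records.

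The package limma 3.58.1, run in R 4.3.3, fitted 1 mean per group to the 69 arrays (55 residual and 3.5 prior degrees of freedom), with two-sided contrasts and Benjamini-Hochberg adjustment over 17306 probe sets at 0.05. Single genes were also tested by a two-sided exact permutation test of 5 against 5 arrays, without adjustment over the 15 genes. Those 15 are, per role, the called genes with the smallest adjusted p in each APAP comparison, plus central factors chosen by name. Both tests use the same arrays, so a small exact p of a gene chosen by its limma p is not independent support. Groups of 5 that do not overlap always give the smallest exact p. The array values of Imp3, Wdr74 and Gnl3 were added after they had been seen. The fit was tested on simulated data with 1 spread per gene, the same in all groups. That run could not show how the fit behaves where 1 group varies more. The factors, lists and rules were chosen with earlier results of these data known. The list counts leave out the 45 factors, and Eif6 and Sesn2 stand in more than 1 list. Log2 sums of markers are log2 of summed linear signals. Alternatives changed the scaling, the filter on dim probe sets, the spread estimate, the controls and the arrays used. Promoters were scanned with pandas 2.3.3 in Python 3.11.15, and plots drawn with matplotlib 3.10.9. Of the 45 factors, Bop1, Gnl2, Mak16, Rrp12 and Rrs1 had no promoter window in the RefSeq table used. The number of arrays limits the precision.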

Additional observations from a re-analysis of the deposited data

Results flagged for a closer look

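The APAP effect differed between 2 days and 1 day, by the limma test of the difference itself, in 8 factors. The difference (log2 units, effect at 2 days minus effect at 1 day) was -0.61 for Ncl, -0.50 for Nop14, -0.59 for Noc4l, -0.74 for Ltv1, -0.89 for Mdn1, -0.81 for Wdr74, -0.73 for Gnl2 and -0.73 for Ddx21.

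Some arrays lay far from the rest of their group by Dixon's test. The median of the 45 factors was 0.62 in replicate 4 of medium-dose APAP at 1 day, where the other arrays lay between -0.03 and 0.07. It was 0.03 in replicate 2 of high-dose APAP at 2 days, where the others lay between -0.15 and -0.12. In that last group Polr1b read 5.14 in replicate 2, against 4.70 to 4.81 in the others, and Mdn1 read 3.87 in replicate 3, against 4.54 to 4.8. Of 14 groups tested for the median 2 were marked, and of 60 pairs of factor and group 2 were. Chance marks about 1 in 20 groups.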

How the results depend on the processing

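No called value changed direction under an alternative. The 28 rises 1 day after high-dose APAP were 19 to 37 under the other alternatives and 0 when only the groups compared entered the fit, which also gave 0 for the 35 factors lower at 2 days than at 1 day, for the 8 with a lower effect at 2 days and for the 1 lower than vehicle at 2 days. Leaving out single arrays of the groups compared gave 15 to 33 rises at 1 day, 18 to 39 lower at 2 days than at 1 day, and 1 to 28 for the difference of effects. That difference was called in 29 factors without the 3 arrays that stood apart, 39 with array weights, 33 with arrays numbered up to 190 in their titles, and 5 after quantile normalization. The count lower than vehicle at 2 days was 2 without the 3 arrays, 4 with array weights (Polr1b, Gnl3, Nob1 and Rrp9), 3 after median centring, 2 without dim probe sets, 2 after quantile normalization, 3 with vehicles of both days, and 0 or 1 without single arrays of the groups compared. It was 2 (Polr1b and Gnl3) without replicate 4 of high-dose APAP at 1 day or replicate 2 of low-dose INZ, which enter only the spread. Imp3 was the 1 factor lower at 1 day without the 3 arrays, with array weights, median centring, arrays up to 190 and both vehicles, and the 1 higher at 2 days than at 1 day without the 3 arrays, with array weights and with arrays up to 190. Leaving out single arrays gave 0 to 1 for both. In the other 10 groups, where 0 passed, the count was 3 without the 3 arrays, 3 with array weights, 5 with arrays up to 190, 1 without dim probe sets, 2 with both vehicles and 0 to 2 without single arrays, in medium-dose APAP apart from Gnl3 after high-dose INZ. The median change of the factors at 1 day, 0.35, was 0.26 after centring and 0.50 with array weights. The causes were not tested. No paired analysis was possible because each array is another mouse and the replicate numbers carry no pairing.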
